A study of Mus musculus with 53 samples.

Results

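RNA of adult mouse hearts was compared between pressure overload by aortic banding and sham surgery. The fraction compared was input, the total cytoplasmic RNA from which ribosome-bound RNA was afterwards purified. A gene entered the comparison when it stood at 1 RPKM or more (its reads divided by the length of its transcript and by the depth of the library) in at least 2 of the 4 input libraries of operated hearts, and 10740 of the 34306 genes in the table did so. Band input gave 2 libraries and sham input 2. In band hearts a ligature was tied round the ascending aorta against a 25 gauge needle, which was then pulled out, and sham hearts had the same operation without the ligature. Male mice of 25 to 30 g were operated on, and all of these hearts came from CAG mice, which carry the ribosome tag for translating ribosome affinity purification (TRAP) in all cell lineages, as the labels of the first of the series' deposits describe the line. The columns match the later deposit, whose labels give neither the line's transgene nor its genetic background. The time between surgery and collection was not given, RNA was pooled before the libraries were made, and the labels do not tell whether both libraries of a group share mice. The p-values below therefore measure how much these libraries vary, which may be technical variation. TRAP RNA after band and after sham (2 libraries each) and input of hearts without surgery (1 library from CAG mice and 1 from Tie2 mice, which carry the tag in endothelial cells) are used beside the main comparison.

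Narrowing the ascending aorta raises the pressure against which the left ventricle ejects. Cardiac myocytes respond by growing, by adding sarcomeres and cytoskeleton and by releasing natriuretic peptides, while fibroblasts and leukocytes of the ventricular wall lay down and remodel matrix. A return to fetal isoforms of contractile and metabolic genes, lower expression of repolarising potassium currents and calcium pump, and a shift away from fatty acid oxidation are known for the overloaded heart of rodents.

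Band input held 28621316 and 36151104 reads and sham input 48867104 and 33043255. Heart muscle genes were at like levels, with a summed 32316 and 31681 RPKM in band and 30165 and 29565 RPKM in sham for a short list of contractile markers, so the libraries carried the tissue of their labels. Atrial markers summed to 39.0 and 20.7 RPKM in band and 23.6 and 27.1 RPKM in sham, against 4637 and 8399 RPKM in the hearts without surgery. The hearts without surgery therefore differed from the operated ones in the tissue they held, and they are given below only as values. Lung surfactant and liver albumin genes stood at or near 0 in the operated hearts, and mitochondrial transcripts took 13.7 and 15.9% of reads in band and 15.3 and 14.0% in sham. The median absolute log2 difference between libraries of 1 group was 0.107 in band and 0.0782 in sham, against 0.141 between the group means.

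Banding raised 286 genes and lowered 192 of the 10740 (limma on log2(RPKM + 1), Benjamini-Hochberg adjusted p under 0.05). These are 2.66% higher and 1.79% lower, or 4.45% of the genes tested in either direction, while 2139 genes (19.9%) had an unadjusted p under 0.05. Those that rose most included Ankrd2 and Nppb of the stressed myocyte, Spp1 and Timp1 of the remodelled matrix and the chemokine Ccl2. The median log2 change was 0.71 among those that rose and −0.61 among those that fell, and 60 rose and 11 fell by more than 1. Most of the transcriptome moved little, since 93.3% of genes lay within 0.5 of no change on the log2 scale and the median of all genes was −0.01. Both band libraries lay above both sham libraries for 3143 genes (29.3%) and below them for 3373 (31.4%).

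The number of calls depended on having 2 libraries in each group. Without band library 1 it was 52 higher and 19 lower, and without band library 2 it was 40 and 6. Without sham library 1 it was 31 higher and 11 lower, and without sham library 2 it was 24 and 5. The lone library left in a group was then assumed to vary like those of the other groups. The genes called in each of these 4 fits numbered 22 that rose, among them Ankrd2, Spp1, Timp1, Ccl2, Saa3, Itgb1bp3, Fhl1, Aldh1a2, Lgals3, Nppb, Tuba1b, Ptx3, Ctgf, Uck2, Synpo2l, Tnfrsf12a, Hspb1, Socs3, Fam46b, Tuba1c and Serpina3n, and 4 that fell, namely Rtn4r, Gm12033, Rps2 and Gm10263. Every other called gene lost its call without at least 1 of the 4 libraries, and 0 of the 478 changed sign in any of the 20 alternatives run.

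The fit held 12 libraries and took the spread from the 8 of operated hearts, since the other 4 groups have 1 library each, and the band TRAP pair varied most. Fitted on the 4 input libraries alone, 794 genes were called higher and 697 lower, among them every one of the 286 and 192. The count was 796 and 759 without band TRAP library 1, and 790 and 757 without band TRAP library 2. It was 124 and 53 without sham TRAP library 1, and 124 and 54 without sham TRAP library 2. Nppa, Acta1, Myh6, Atp2a2 and Postn, well known genes of overload that are described below as not called, passed the threshold in the fit of the 4 input libraries alone, with adjusted p = 0.0157, 0.0237, 0.0268, 0.0117 and 0.00296.

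**Figure D1:**
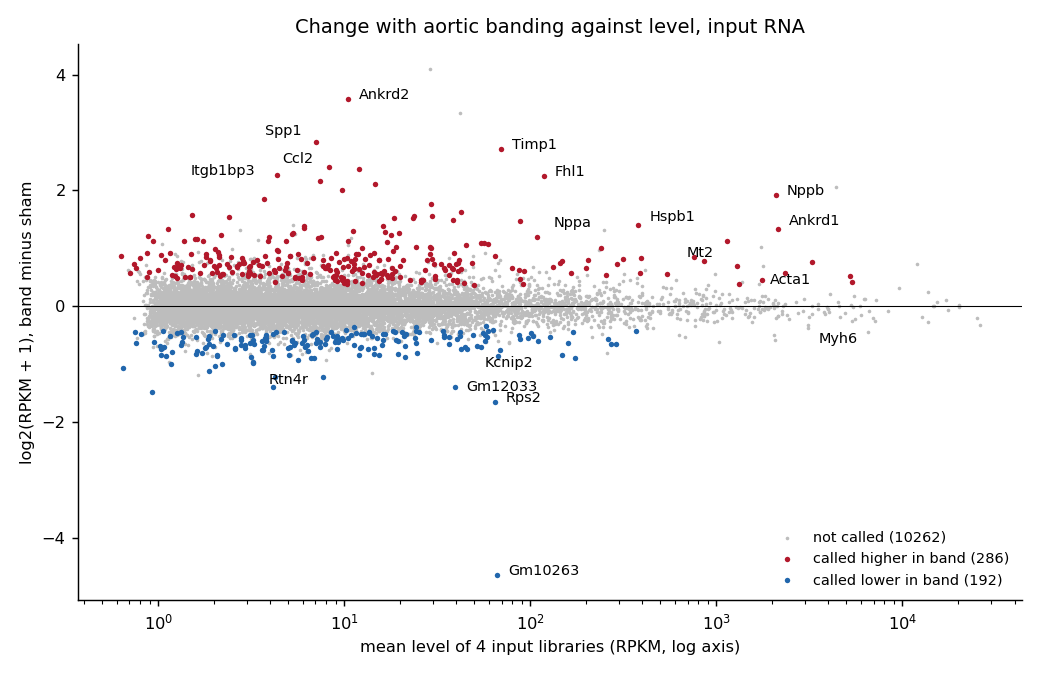
Difference in log2(RPKM + 1), band minus sham, against the mean RPKM of the 4 input libraries (log axis) for 10740 genes, with genes called higher in red and lower in blue. Called genes are spread over the whole range of levels, and Nppb and Ankrd1 stand out among the abundant genes.

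Stress genes of the ventricular myocyte made up the group with the most calls. Of 31 tested in this list, 19 rose and 0 fell, with a median log2 change of 0.70 against −0.01 over all genes. Over all genes 2.66% rose and 1.79% fell, and these shares are the background for each list count below. Nppb, which encodes the natriuretic peptide BNP released by stretched ventricles, stood at 3081 and 3514 RPKM in band hearts, against 872 and 865 RPKM in sham hearts. It was 3.80-fold higher, with a log2 change of 1.92 ± 0.10 (SE; adjusted p = 0.000554). Both band libraries were thus far above both sham libraries, in a gene that was already abundant in sham hearts. Nppa, the atrial natriuretic peptide that adult ventricles express again under load, had 261 and 459 RPKM in band, against 139.6 and 138 RPKM in sham. Its band libraries both lay above sham but differed widely from each other. The 2.60-fold difference was not called in the fit of 12 libraries (log2 1.31 ± 0.47, adjusted p = 0.185).

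Among the 19 genes that rose, Ankrd2, Ankrd1, Fhl1, Csrp3 and Xirp2 encode proteins of titin, of the Z-disc, the border of the sarcomere where actin filaments are anchored, or of the intercalated disc. Ankrd2, a muscle ankyrin repeat protein of the titin I-band, was at 17.3 and 23.1 RPKM in band, against 0.800 and 0.715 RPKM in sham. This 26.7-fold ratio was the largest among the genes that rose (log2 3.58 ± 0.27, adjusted p = 0.00176), and the gene was nearly silent in sham hearts and in those without surgery (0.376 and 0.289 RPKM). Its relative Ankrd1, a transcriptional cofactor also bound to titin, was 2.54-fold higher, with 3407 and 2762 RPKM in band, against 1227 and 1197 RPKM in sham (adjusted p = 0.00481). Fhl1, a LIM domain protein that binds the elastic part of titin, had 177 and 216 RPKM in band, against 40.1 and 41.1 RPKM in sham, 4.84-fold (log2 2.24 ± 0.11, adjusted p = 0.000398). Csrp3, the muscle LIM protein of the Z-disc, was among the most abundant genes that rose, with 4026 and 4196 RPKM in band, against 2430.0 and 2406 RPKM in sham (adjusted p = 0.00602). Xirp2, which binds actin at the intercalated disc, had 37.7 and 39.9 RPKM in band, against 19.5 and 17.95 RPKM in sham, close to the threshold (adjusted p = 0.0471).

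The promoters of the following genes, each of which rose, are shown so that the sequence next to their starts can be read. Each is 250 bases before to 50 after the start of transcription in RefSeq (GRCm38.p6, a later build than that of the reads), 5′ to 3′ on the gene's own strand. Windows were searched on both strands for TATAAA (the TATA box), AGATAA (bound by GATA factors), CATTCC (the M-CAT element bound by TEAD factors), TTCNNNGAA (bound by STAT factors) and the CArG box bound by serum response factor, and matches stand in capitals. These motifs were chosen after windows had been searched.

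Nppb, chr4:147985650-147985949, plus strand: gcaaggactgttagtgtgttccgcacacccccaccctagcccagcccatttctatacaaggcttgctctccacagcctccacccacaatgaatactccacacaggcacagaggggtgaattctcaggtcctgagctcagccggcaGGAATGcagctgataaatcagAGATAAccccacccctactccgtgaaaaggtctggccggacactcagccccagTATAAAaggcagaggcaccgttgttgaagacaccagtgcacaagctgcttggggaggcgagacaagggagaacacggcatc
Ankrd1, chr19:36119795-36120094, minus strand: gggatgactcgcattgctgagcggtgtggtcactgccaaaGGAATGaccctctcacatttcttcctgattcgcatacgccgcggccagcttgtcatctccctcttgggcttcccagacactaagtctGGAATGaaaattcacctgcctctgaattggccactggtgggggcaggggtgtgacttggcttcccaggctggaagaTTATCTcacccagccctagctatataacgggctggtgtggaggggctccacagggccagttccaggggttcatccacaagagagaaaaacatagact
Ankrd2, chr19:42035777-42036076, plus strand: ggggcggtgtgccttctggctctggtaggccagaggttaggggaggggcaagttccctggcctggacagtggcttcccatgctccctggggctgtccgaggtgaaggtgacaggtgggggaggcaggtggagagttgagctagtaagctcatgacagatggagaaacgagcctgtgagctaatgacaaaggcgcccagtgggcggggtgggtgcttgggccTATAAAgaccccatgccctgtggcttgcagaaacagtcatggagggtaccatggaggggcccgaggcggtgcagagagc
Fhl1, chrX:56779433-56779732, plus strand: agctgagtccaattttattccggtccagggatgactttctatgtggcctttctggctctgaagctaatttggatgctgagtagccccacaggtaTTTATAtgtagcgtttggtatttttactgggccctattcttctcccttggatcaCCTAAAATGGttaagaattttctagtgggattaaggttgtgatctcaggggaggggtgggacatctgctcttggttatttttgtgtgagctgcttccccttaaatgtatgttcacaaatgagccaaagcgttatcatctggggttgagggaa
Socs3, chr11:117969317-117969616, minus strand: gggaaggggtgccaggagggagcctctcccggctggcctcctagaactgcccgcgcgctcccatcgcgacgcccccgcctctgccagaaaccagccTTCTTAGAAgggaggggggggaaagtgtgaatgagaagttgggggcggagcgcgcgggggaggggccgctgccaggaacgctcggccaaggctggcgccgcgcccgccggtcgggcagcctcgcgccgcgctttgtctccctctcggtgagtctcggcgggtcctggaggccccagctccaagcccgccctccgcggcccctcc

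Nppb held an M-CAT element (read as GGAATG) that began 105 bases before the start, a GATA motif at 84 and a TATA box at 31. Ankrd1 held M-CAT elements at 210 and 123 bases before the start and a GATA motif on the opposite strand at 47. Ankrd2 held a TATA box at 29, Fhl1 the TATAAA letters on the opposite strand at 156 and a CArG box at 102, and Socs3, a feedback inhibitor of cytokine signalling described further on, a STAT motif at 154 bases before the start. Fhl1 has 2 starts in the table, and the 1 shown was the first found to hold a CArG box. Each window shown had to hold the motifs sought for its gene, so these matches follow from that choice. Of all 32851 windows, 14.7% held an M-CAT element, 13.6% a TATA box, 11.2% the GATA motif, 8.30% the STAT motif and 1.63% a CArG box. A match is a description of these letters and not a measured binding site. Windows were at hand for 201 of the 286 genes that rose (70.3%) and 138 of the 192 that fell (71.9%), too few for shares over these groups to be given.

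Other genes of this list rose by ratios that differed widely. Itgb1bp3, which encodes the muscle nicotinamide riboside kinase that feeds NAD synthesis, had 7.90 and 7.85 RPKM in band, against 0.934 and 0.757 RPKM in sham, 9.31-fold (adjusted p = 0.000630). Tnfrsf12a, the receptor of the cytokine TWEAK, had 136 and 124 RPKM in band, against 43.5 and 48.3 RPKM in sham, 2.82-fold (adjusted p = 0.00145). Rcan1, a calcineurin inhibitor whose own transcription is driven by calcineurin, had 59.0 and 64.0 RPKM in band, against 29.9 and 28.3 RPKM in sham (adjusted p = 0.0137). In all 3 genes the groups lay clearly apart. Cdkn1a, the cell cycle inhibitor p21, was 2.07-fold higher (adjusted p = 0.0151), and Gdf15, a secreted stress cytokine, was 1.76-fold higher at 2.99 and 2.72 RPKM in band, against 1.52 and 1.72 RPKM in sham (adjusted p = 0.0371). The metallothioneins, small proteins that bind zinc and copper, were abundant and rose too. Mt2 had 1698 and 1418 RPKM in band, against 685 and 736 RPKM in sham (adjusted p = 0.0174), and Mt1 had 2932 and 2659 RPKM in band, against 1813 and 1944 RPKM in sham (adjusted p = 0.0207). Mt2 was lower in the hearts without surgery than in sham hearts, at 250.4 and 173 RPKM.

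In the chaperone list 5 of 29 genes rose and 1 fell, against 2.66% and 1.79% over all genes. Hspb1, a small heat shock protein of the kind that keeps unfolded proteins soluble, was at 541 and 564 RPKM in band, against 200.2 and 217 RPKM in sham, 2.65-fold (log2 1.401 ± 0.11, adjusted p = 0.00176). Hspb7, which binds filamin in the sarcomere, was 1.62-fold higher (adjusted p = 0.00834) and Cryab, the alpha B-crystallin of the Z-disc, 1.37-fold (adjusted p = 0.0234). Of the stress-inducible chaperones, Hspa1a was called at a low level, with 1.85 and 1.62 RPKM in band, against 0.699 and 0.724 RPKM in sham (adjusted p = 0.0166). Hspb6, a relative of Hspb1, was the fifth gene that rose and Fkbp4, a cochaperone of HSP90, the gene that fell.

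Some contractile isoforms were called, but the best known pair of the fetal switch was not among them. In the list of myosin and actin isoforms, 5 of 21 rose, against 2.66% over all genes, and 0 fell, with a median log2 change of 0.12. Myh7, the slow myosin heavy chain of the fetal mouse ventricle, had 837 and 776 RPKM in band, against 914 and 894 RPKM in sham (log2 −0.17 ± 0.15, adjusted p = 0.629). Myh6, the fast adult heavy chain, had 2804 and 2594 RPKM in band, against 3623 and 3427 RPKM in sham, and was not called (log2 −0.39 ± 0.13, adjusted p = 0.172). Both heavy chains were thus lower in each band library than in each sham library, with Myh6 above Myh7 in all 4. Acta1, the skeletal actin of fetal hearts, had 1867 and 2549 RPKM in band, against 1357 and 1339 RPKM in sham, and was not called (log2 0.69 ± 0.18, adjusted p = 0.0929). Actc1, the main cardiac actin, did rise, by 1.43-fold, with 6131 and 6126 RPKM in band, against 4337 and 4243 RPKM in sham (adjusted p = 0.0164). Acta2, the smooth muscle actin, had 102 RPKM in both band libraries, against 105 and 110.3 RPKM in sham (adjusted p = 0.831). The other genes that rose in this list were Actb and Actg1, the cytoplasmic actins, Mybpc2, the myosin binding protein of fast skeletal muscle, and Tnnc1, the calcium-binding troponin of the heart.

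**Figure D2:**
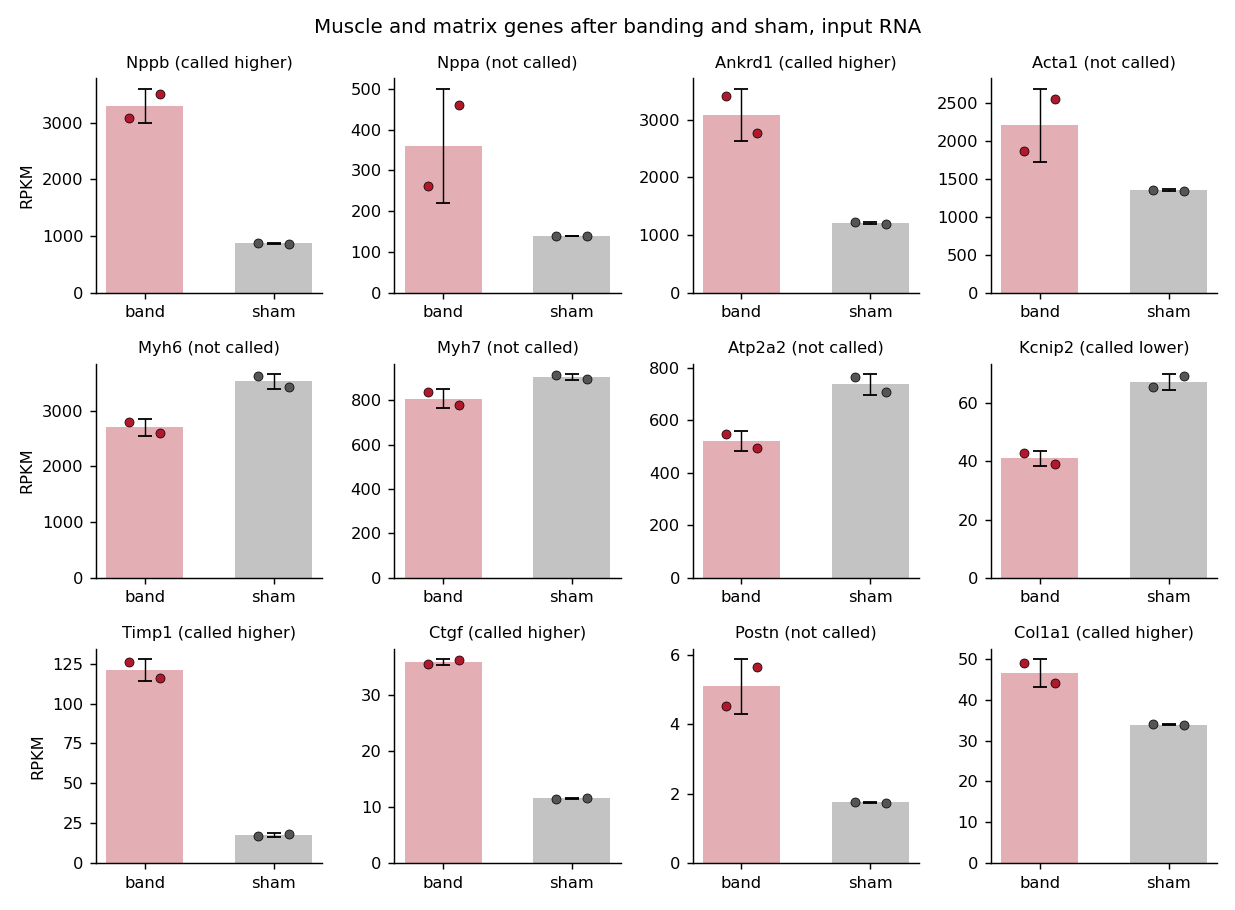
RPKM of 12 muscle and matrix genes in band and sham input, with a point for each library, bars for the mean and whiskers for the SD (n = 2 libraries each). The band libraries of Nppa, Acta1 and Postn are farther from each other, relative to their mean, than those of Nppb or Ctgf. These 3 genes were not called in the fit of 12 libraries but passed the threshold in the fit of the 4 input libraries alone. Ankrd1, whose band libraries are also farther apart than those of Nppb, was called.

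Of 28 genes of microtubules and cytoskeleton, 17 rose and 0 fell (2.66% and 1.79% over all genes), with a median log2 change of 0.64. Among the 17, 9 encode tubulins, the subunits of microtubules. Tuba1b had 61.9 and 66.9 RPKM in band, against 20.6 and 19.8 RPKM in sham, 3.19-fold (log2 1.62 ± 0.09, adjusted p = 0.000554). Tuba1c and the beta tubulins Tubb2a and Tubb6 were between 2.02-fold and 2.39-fold higher. The other tubulins that rose were Tubb4b, Tubb2b, Tuba1a, Tubb5 and Tuba4a. Tubulin genes are close copies, as are the cytoplasmic actins, and how reads shared between copies were counted was not given. Among actin regulators, Capg, which caps filament ends, had 24.6 and 22.96 RPKM in band, against 8.86 and 8.15 RPKM in sham (2.80-fold, adjusted p = 0.00602), and Cfl1, which severs filaments, had 398 and 408 RPKM in band, against 236 and 222 RPKM in sham (adjusted p = 0.00376). Actb was 1.81-fold higher, with 1049 and 903 RPKM in band, against 533 and 545 RPKM in sham (adjusted p = 0.00834).

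Of 30 genes of the sarcomere, Z-disc and intercalated disc, 2 rose and 2 fell (2.66% and 1.79% over all genes). Synpo2l, an actin-bundling protein of the Z-disc, had 59.0 and 55.1 RPKM in band, against 19.6 RPKM in both sham libraries, 2.91-fold (adjusted p = 0.000597). Flnc, the muscle filamin that links Z-disc and membrane, had 32.4 and 33.0 RPKM in band, against 15.8 and 15.5 RPKM in sham (adjusted p = 0.00481). The genes that fell were Dsp, the desmoplakin of the desmosome, with 30.9 and 28.0 RPKM in band, against 45.7 and 40.8 RPKM in sham (adjusted p = 0.0245), and Cmya5, a large protein that binds desmin and dystrobrevin (14.0 and 11.5 RPKM in band, against 20.2 and 18.8 RPKM in sham, adjusted p = 0.0408). Tnnt2, the troponin that anchors the complex to tropomyosin, and Myl2, the ventricular light chain, had ratios of 1.07 and 1.05 and were not called.

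Of 25 channel and pump genes tested, 3 fell and 1 rose, and the median log2 change was −0.27. Kcnip2, the subunit that gives the transient outward potassium current its size, had 42.9 and 39.2 RPKM in band, against 65.5 and 69.3 RPKM in sham (log2 −0.70 ± 0.10, adjusted p = 0.0154). Its channel partner Kcnd2 passed 1 RPKM in only 1 sham library and was not tested, with 0.509 and 0.515 RPKM in band, against 0.898 and 1.09 RPKM in sham. Scn4b, a beta subunit of the sodium channel, was 2.05-fold lower in band (4.60 and 4.40 RPKM, against 8.51 and 9.92 RPKM in sham, adjusted p = 0.00606). Atp1b1, the regulatory subunit of the sodium pump, rose by 1.31-fold (adjusted p = 0.0480).

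In the calcium cycling list, 0 of 26 genes were called in either direction by limma, with 6 at an unadjusted p under 0.05 (19.9% over all genes), and voom on the recovered reads called 2 lower. Atp2a2, the calcium pump of the sarcoplasmic reticulum, had 548 and 493 RPKM in band, against 766 and 709.5 RPKM in sham. Each band library was below each sham library, and the difference was not called (log2 −0.50 ± 0.13, adjusted p = 0.0929). Pln, the inhibitor of this pump, had 891 and 888 RPKM in band, against 868 and 869 RPKM in sham (adjusted p = 0.969). Ryr2, the calcium release channel, had 15.1 and 12.3 RPKM in band, against 17.7 and 16.7 RPKM in sham (adjusted p = 0.572).

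Fatty acid oxidation and the 5 lists of energy supply after it held limma calls near or under the shares over all genes, 2.66% higher and 1.79% lower. In fatty acid oxidation 1 of 40 rose and 0 fell (median log2 −0.06), with 2 higher by voom on the recovered reads, and in nuclear encoded oxidative phosphorylation 0 of 50 were called (median −0.06). None of 31 genes of the citric acid cycle (median −0.14), of 24 of branched chain amino acid and ketone breakdown, of 18 of creatine and NAD or of 15 encoded in the mitochondrion was called by limma or by voom on the recovered reads. At an unadjusted p under 0.05, limma gave 2, 8, 6, 2 and 0 genes for the 5 lists without calls, oxidative phosphorylation first, against 19.9% of all genes. In the citric acid cycle list, 24 of 31 genes had both band libraries below both sham libraries, against 31.4% of all genes. The gene that rose in the first of these lists was Angptl4, an inhibitor of lipoprotein lipase, with 9.12 and 6.41 RPKM in band, against 2.77 and 2.53 RPKM in sham (2.93-fold, adjusted p = 0.00947). Cpt1b, which admits fatty acids into muscle mitochondria, had 2.73 and 2.43 RPKM in band, against 3.07 and 2.78 RPKM in sham (adjusted p = 0.499). Ppara, the nuclear receptor that drives the pathway, and Ppargc1a, its coactivator, had ratios of 0.808 and 0.862 and were not called (adjusted p = 0.241 and 0.717). Pdk4, which blocks entry of pyruvate into the cycle, had 54.1 and 39.0 RPKM in band, against 27.7 and 27.6 RPKM in sham (adjusted p = 0.269).

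Among regulators of oxidative metabolism 2 of 28 fell and 0 rose, against 1.79% lower over all genes. They were Nr1d1, the clock repressor REV-ERB alpha, with 27.2 and 28.7 RPKM in band, against 43.1 and 46.2 RPKM in sham (adjusted p = 0.0244), and Klf15, a transcription factor of fat and amino acid use, with 10.98 and 11.8 RPKM in band, against 16.4 and 17.0 RPKM in sham (adjusted p = 0.0315). Dbp, a clock output factor, fell too (adjusted p = 0.0334), so that 2 of 19 clock genes were called. In glycolysis Pfkp, the platelet type phosphofructokinase, rose by 1.74-fold (16.1 and 12.5 RPKM in band, against 8.65 and 7.82 RPKM in sham, adjusted p = 0.0276), and Pygm, the muscle enzyme that breaks down glycogen, fell (334 and 295 RPKM in band, against 423 and 429 RPKM in sham, adjusted p = 0.0374). The sources used here give no hour of day for the collection of hearts.

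In the matricellular and elastic fibre list 12 of 36 rose and 1 fell, while the median was 0.07. Spp1, osteopontin, had 14.2 and 11.97 RPKM in band, against 0.964 and 0.984 RPKM in sham, 13.4-fold (log2 2.83 ± 0.13, adjusted p = 0.000398). Ctgf, the matricellular growth factor CCN2, had 35.5 and 36.3 RPKM in band, against 11.4 and 11.6 RPKM in sham, 3.11-fold (adjusted p = 0.00268). Ctgf had little spread within a group, while the band libraries of Spp1 differed more from each other. Thbs1, thrombospondin 1, had 2.00 and 2.10 RPKM in band, against 0.262 and 0.155 RPKM in sham (9.81-fold, adjusted p = 0.00473), and Tnc, the tenascin of injured tissue, 1.95 and 1.31 RPKM in band, against 0.141 and 0.106 RPKM in sham (13.2-fold, adjusted p = 0.0123). Sham levels of both were far under 1 RPKM, where a ratio of means is imprecise. Fn1, fibronectin, was 1.78-fold higher (adjusted p = 0.0324). Postn, periostin of activated fibroblasts, had 4.53 and 5.65 RPKM in band, against 1.76 and 1.73 RPKM in sham, and was not called (2.92-fold, adjusted p = 0.0735). The gene that fell was Fbln1, fibulin 1, with 13.8 and 13.6 RPKM in band, against 24.1 and 26.2 RPKM in sham (adjusted p = 0.00834).

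Of 25 genes of matrix proteases and their inhibitors, 6 rose and 0 fell, with a median of 0.05. Timp1, an inhibitor of metalloproteinases, had 126 and 116 RPKM in band, against 16.9 and 18.3 RPKM in sham, 6.87-fold (log2 2.71 ± 0.13, adjusted p = 0.000398). The urokinase Plau and its receptor Plaur rose as well, with Plaur at 2.20 and 2.30 RPKM in band, against 0.586 and 0.412 RPKM in sham (adjusted p = 0.00606). Serpina3n, an inhibitor of serine proteases, had 82.4 and 79.5 RPKM in band, against 38.0 and 37.5 RPKM in sham (2.14-fold, adjusted p = 0.00179), and 3.67 and 1.67 RPKM in the hearts without surgery. Mmp3, a metalloproteinase, also rose.

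Of 32 genes of collagens and their assembly, 3 rose and 0 fell (2.66% and 1.79% over all genes), with a median of 0.08. Col8a1, a short chain network collagen, had 7.56 and 8.16 RPKM in band, against 2.45 and 2.95 RPKM in sham (2.91-fold, adjusted p = 0.00481). Col1a1, the main chain of collagen I, had 49.0 and 44.2 RPKM in band, against 34.0 and 33.8 RPKM in sham (1.38-fold, adjusted p = 0.0455), and Loxl1, which cross-links elastin, was 1.49-fold higher (adjusted p = 0.0204). Col3a1, of collagen III, had 36.4 and 29.4 RPKM in band, against 38.8 and 35.9 RPKM in sham, with overlapping groups (adjusted p = 0.719). The collagen genes that were called thus did not include Col3a1, which stood at a level like that of Col1a1.

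Of 27 genes of TGF-beta, BMP and activin signalling, 6 rose and 0 fell. The ligands were Inhba, the activin A subunit, with 2.30 and 2.84 RPKM in band, against 0.606 and 0.572 RPKM in sham (4.36-fold, adjusted p = 0.00484), and Tgfb2, with 3.16 and 2.86 RPKM in band, against 1.33 and 1.15 RPKM in sham (2.43-fold, adjusted p = 0.0203). Fstl3, a secreted protein that binds and blocks activin, had 1.63 and 1.66 RPKM in band, against 0.429 and 0.449 RPKM in sham (adjusted p = 0.00732). Tgfbi, a matrix protein named for its induction by TGF-beta, rose by 1.73-fold (adjusted p = 0.0112). Fstl1 and Gdf15 were the remaining genes that rose. Downstream of Hippo signalling, Ctgf, Ankrd1 and Cyr61, known targets of YAP and TEAD, rose among 20 genes of the Wnt and Hippo list and 0 fell.

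Fibroblast markers did not move in 1 direction. Of 19 tested, 3 rose (S100a4, Fn1 and Col1a1) and 3 fell (Fbln1, Islr and Gsn), against 2.66% and 1.79% over all genes. The median was −0.01, the same as over all genes. S100a4, a calcium-binding protein also made by leukocytes, had 31.1 and 39.0 RPKM in band, against 10.7 and 12.3 RPKM in sham (3.05-fold, adjusted p = 0.00606). Islr, a surface protein of mesenchymal cells, had 4.62 and 4.23 RPKM in band, against 8.02 and 8.56 RPKM in sham (adjusted p = 0.00622). A short list of 5 fibroblast markers summed to 101 and 92.3 RPKM in band and 94.6 and 97.6 RPKM in sham. In RNA of whole tissue, more cells of a type and more RNA per cell cannot be told apart, and this holds for each cell type below.

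Of 26 chemokines and cytokines tested, 8 rose and 0 fell, with a median of 0.34, and voom on the recovered reads called 5 higher. Ccl2, which draws monocytes through the receptor CCR2, had 15.9 and 13.5 RPKM in band, against 2.02 and 1.88 RPKM in sham, 7.55-fold (log2 2.41 ± 0.17, adjusted p = 0.00123). Ccl7, a ligand of the same receptor, had 7.15 and 5.63 RPKM in band, against 1.07 and 0.982 RPKM in sham, 6.22-fold (adjusted p = 0.00481). Lgals3, the galectin of activated macrophages, had 17.9 and 14.4 RPKM in band, against 3.20 and 3.35 RPKM in sham, 4.94-fold (adjusted p = 0.000660). The others were Spp1, described above, Ccl8 and Ccl6, the neutrophil chemokine Cxcl1 and Il1b, which encodes interleukin 1 beta and had 2.06 and 1.71 RPKM in band, against 0.830 and 0.692 RPKM in sham (adjusted p = 0.0207). Both band libraries lay above both sham libraries for 20 of the 26 genes, against 29.3% of all genes.

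In the interleukin 6 and acute phase list 11 of 26 genes rose and 1 fell, with a median of 0.54. Il6 and Il11, ligands of this family, were under the level needed for testing, with Il6 at 0.289 and 0.331 RPKM in band, against 0 RPKM in both sham libraries, and Il11 at 0.745 and 0.895 RPKM in band, against 0.178 and 0.167 RPKM in sham. Of the receptors, Il11ra1, which binds interleukin 11, fell, with 11.6 and 9.93 RPKM in band, against 20.6 and 19.4 RPKM in sham (log2 −0.84 ± 0.10, adjusted p = 0.0101). Stat3, the transcription factor these receptors switch on, rose by 1.49-fold (adjusted p = 0.0303). Its target Socs3, the feedback inhibitor whose promoter with a STAT motif is printed above, had 9.45 and 8.90 RPKM in band, against 2.87 and 2.96 RPKM in sham, 3.14-fold (log2 1.38 ± 0.11, adjusted p = 0.00204). Saa3, an acute phase apolipoprotein made outside the liver, had 23.4 and 18.1 RPKM in band, against 3.58 and 2.79 RPKM in sham, 6.51-fold (adjusted p = 0.000971). It stood at 0.567 and 0.187 RPKM in the hearts without surgery. Ptx3, a secreted pattern recognition protein that no list held, had 2.76 and 2.79 RPKM in band, against 0.330 and 0.220 RPKM in sham, 10.1-fold (adjusted p = 0.000776).

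Markers of leukocytes differed by cell type and gene. Of 35 macrophage and monocyte genes, 7 rose and 0 fell, with a median of 0.26. Cd68, of the macrophage lysosome, had 22.1 and 22.4 RPKM in band, against 11.5 and 12.9 RPKM in sham (1.82-fold, adjusted p = 0.00622). Coro1a, an actin-binding protein of leukocytes, and Itgam, an integrin of myeloid cells, were 1.98-fold and 2.24-fold higher (adjusted p = 0.0138 and 0.0374). Among 6 neutrophil genes 2 rose, S100a9, a calprotectin subunit, with 30.6 and 25.3 RPKM in band, against 10.7 and 7.52 RPKM in sham (3.06-fold, adjusted p = 0.0222), and Csf3r, the receptor of granulocyte colony stimulating factor (adjusted p = 0.0396). Voom on the recovered reads called 1 of these 6 genes higher and did not call Csf3r. The summed level of 5 macrophage markers (Cd68, Csf1r, Lyz2, C1qa and Cd14) was 332 and 277 RPKM in band, against 250.1 and 252.5 RPKM in sham, although the groups overlapped for C1qa (172 and 129 RPKM in band, against 129.96 and 130.2 RPKM in sham) and Csf1r. The sum of 3 neutrophil markers (S100a8, S100a9 and Csf3r) was 50.4 and 37.5 RPKM in band, against 18.3 and 13.7 RPKM in sham. Most of this sum came from S100a8 and S100a9. Of 14 neutrophil genes 8 were under the level needed for testing, among them Ly6g at 0 in all 4 libraries. Of 20 lymphocyte genes 16 were under the level needed for testing, and of the other 4 Cd52, a surface protein of leukocytes, rose (adjusted p = 0.0138). A sum of 3 lymphocyte markers overlapped, with 1.96 and 1.05 RPKM in band, against 1.28 RPKM in both sham libraries, and Ms4a1, which defines B cells, was at 0 in all 4. The macrophage and neutrophil sums moved with the chemokine and acute phase genes above, and their part in those changes was not tested. None of 29 genes of interferon response and antigen presentation was called by limma (median −0.07), with 4 at an unadjusted p under 0.05 (19.9% over all genes), and voom on the recovered reads called 1 higher.

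Of 39 endothelial genes 3 fell, against 1.79% over all genes, and 0 rose, with a median of −0.14. They were the peptide ligand Apln with 0.821 and 0.861 RPKM in band, against 1.94 and 1.72 RPKM in sham (adjusted p = 0.0262), its receptor Aplnr with 5.32 and 5.53 RPKM in band, against 8.08 and 8.001 RPKM in sham (adjusted p = 0.0334), and the Notch ligand Dll4 of arterial and tip cells with 1.35 and 1.37 RPKM in band, against 2.51 and 2.25 RPKM in sham (adjusted p = 0.0305). Of 19 smooth muscle and pericyte genes, Tagln alone was called, with 24.8 and 31.7 RPKM in band, against 11.3 and 10.8 RPKM in sham (adjusted p = 0.0211). Of 9 erythroid genes 2 fell, among them Hbb-b2, a beta globin, with 110.1 and 132 RPKM in band, against 223 and 228 RPKM in sham (adjusted p = 0.0187). Globin genes are near copies of each other. Haemoglobin took 0.108 and 0.136% of reads in band and 0.181 and 0.176% in sham.

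In the epicardial and mesothelial list, Aldh1a2, which makes retinoic acid, had 13.8 and 11.7 RPKM in band, against 2.02 and 2.09 RPKM in sham, 6.21-fold (log2 2.17 ± 0.12, adjusted p = 0.000554). Msln, the mesothelial surface protein, fell, with 0.876 and 1.07 RPKM in band, against 2.41 and 2.51 RPKM in sham (adjusted p = 0.0133). The 2 called members among the 7 tested thus went opposite ways. Of the 7, 5 had both band libraries below both sham libraries and 2 above, against 31.4% and 29.3% of all genes, with a median log2 change of −0.31. The other 8 of the 15 genes in this list were under the level needed for testing. Cyp26b1, which breaks retinoic acid down, fell as well, with 0.816 and 0.948 RPKM in band, against 2.21 and 2.44 RPKM in sham (2.64-fold lower, adjusted p = 0.0172).

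Among immediate early genes, which cells switch on within a short time of a stimulus, 10 of 30 rose and 1 fell, with a median of 0.32. Gadd45g, a stress sensor of the growth arrest family, had 46.1 and 45.5 RPKM in band, against 13.4 and 12.2 RPKM in sham, 3.58-fold (adjusted p = 0.00376). Atf3, a stress-induced transcription factor, had 6.39 and 5.37 RPKM in band, against 1.92 and 2.04 RPKM in sham (2.97-fold, adjusted p = 0.00334), and Myc 2.75 and 2.58 RPKM in band, against 1.02 and 0.906 RPKM in sham (2.77-fold, adjusted p = 0.00834). Egr1, Fos and Junb, early transcription factors of growth stimuli, were 2.09-fold, 2.19-fold and 1.81-fold higher. Dusp1, a phosphatase that switches off MAP kinases, fell (16.8 and 14.6 RPKM in band, against 21.2 and 22.5 RPKM in sham, adjusted p = 0.0411). Dusp26, another phosphatase, had 3.41 and 4.71 RPKM in band, against 0.750 and 0.703 RPKM in sham (5.59-fold, adjusted p = 0.00346), and the growth factor Hbegf 15.4 and 16.2 RPKM in band, against 7.90 and 7.996 RPKM in sham (adjusted p = 0.00346).

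**Figure D3:**
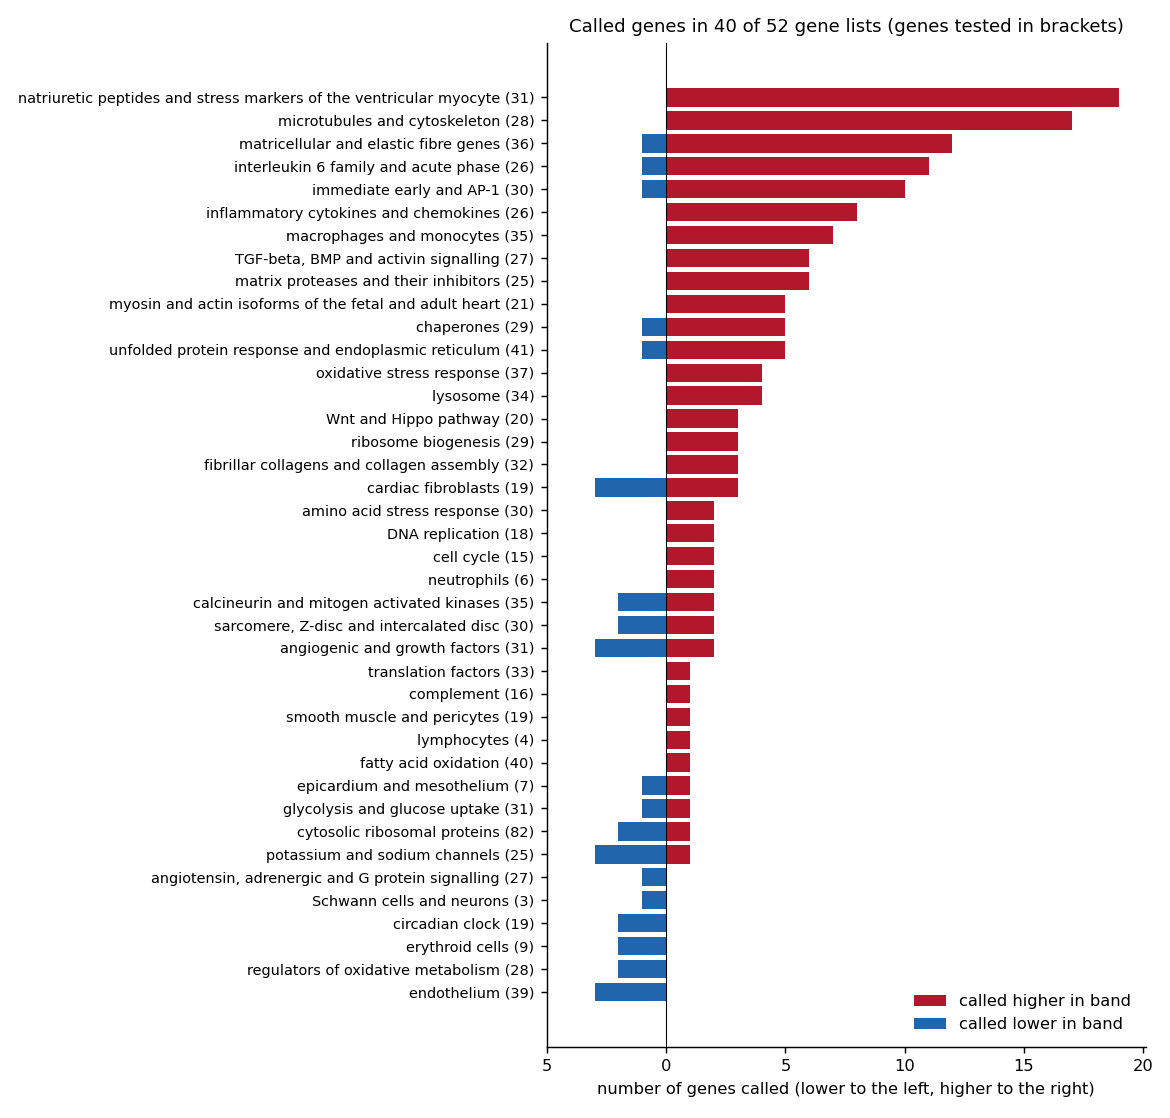
Number of genes called lower (left, blue) and higher (right, red) in band than in sham input for each of the 40 gene lists with at least 1 called gene, of 52 in all, with the number of genes tested in brackets. Lists of myocyte stress (19 of 31) and cytoskeleton (17 of 28) genes have the most calls, and all of these are higher.

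The genes that fell most were a mixed group. Of all genes called, 29 of the 192 that fell and 124 of the 286 that rose belonged to any of the 52 lists. These lists held 1267 of the 10740 genes tested and were chosen with earlier results of these data known, so nothing is read from these counts. Rtn4r, the Nogo receptor, known from axons, had 4.33 and 4.08 RPKM in band, against 10.98 and 11.3 RPKM in sham, 2.65-fold lower (log2 −1.22 ± 0.08, adjusted p = 0.00123). Inmt, a methyltransferase of indole amines, had 2.08 and 1.59 RPKM in band, against 6.23 and 6.63 RPKM in sham, 3.51-fold lower (adjusted p = 0.00606). Rasl10a, a small GTPase related to Ras, was 2.98-fold lower (adjusted p = 0.00460) and Stbd1, which binds glycogen, 2.90-fold lower (adjusted p = 0.00622). Scara5, a receptor for ferritin, and Nmb, the peptide neuromedin B, were 2.44-fold and 2.20-fold lower. In each of these genes both band libraries lay below both sham libraries, which the rule for naming the largest changes required.

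The largest falls included pseudogenes and a gene with many pseudogene copies. Gm10263, a pseudogene, had 3.66 and 4.74 RPKM in band, against 123 and 134 RPKM in sham (adjusted p = 0.000630), and 36.4 and 605 RPKM in the hearts without surgery. Rps2, a protein of the small ribosomal subunit, had 30.4 and 30.6 RPKM in band, against 98.0 RPKM in both sham libraries (adjusted p = 0.000398), and 35.5 and 198 RPKM in the hearts without surgery. Both therefore also differed several-fold between the hearts without surgery. The pseudogene Gm12033 had 19.7 and 22.8 RPKM in band, against 56.6 and 58.7 RPKM in sham (adjusted p = 0.00138). For such genes, how reads shared between copies were counted was not given, so these values are uncertain. Of 82 cytosolic ribosomal protein genes, Rps18 rose and Rps2 and Rpl3l, the muscle copy of Rpl3, fell, a share near the background. Both band libraries lay above both sham libraries for 41 of the 82 and below for 7, against 29.3% and 31.4% of all genes. The median log2 change of these 82 genes was 0.11. Mir5133 was listed at 0 RPKM in both band libraries, against 1.33 and 2.36 RPKM in sham, and fell (adjusted p = 0.0117).

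**Figure D4:**
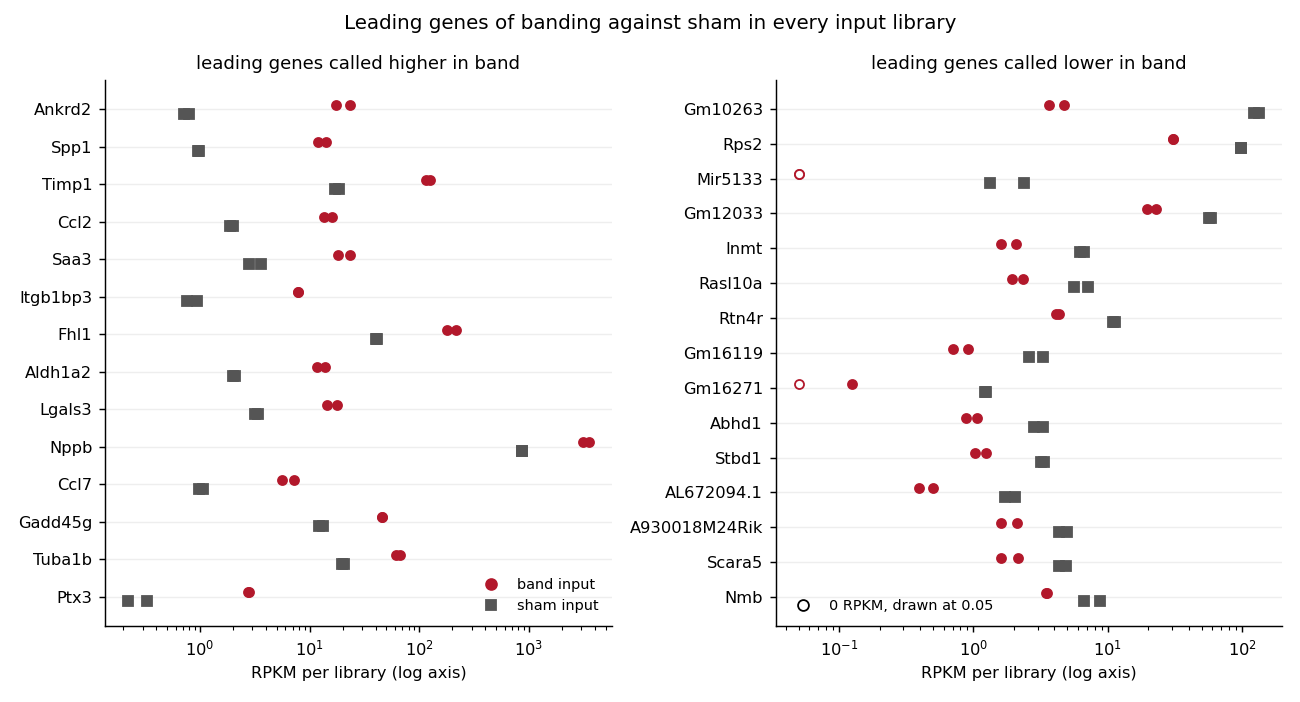
RPKM in each band (red circles) and sham (grey squares) input library (log axis) for genes among the largest called changes higher (left) and lower (right) in band, and open circles mark 0 RPKM drawn at 0.05. Genes whose band and sham libraries overlapped were left out by the rule, so the gap in each gene follows from that choice. Gm10263 has the widest gap on the right.

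Whether the changes of input RNA were also seen in ribosome-bound RNA was asked with the TRAP libraries of operated hearts, in which 2.50% of the same genes were called higher and 1.78% lower. Of the 286 genes that rose in input, 281 had a positive change in TRAP and 170 were called higher there too, which is 59.4% of the input calls and 63.4% of the 268 TRAP calls. Of the 192 that fell, 189 had a negative change in TRAP and 93 were called lower, 48.4% of the input calls and 48.7% of the 191 TRAP calls. Over all genes, 70.5% had the same sign in both. Input and TRAP may have come from the same hearts, so the fractions are not independent samples. Among the leading genes, Nppb had a log2 change of 1.92 in input, against 2.03 in TRAP. The change of Ankrd2 was 3.58 in input, against 3.47 in TRAP, that of Fhl1 2.24 in input, against 2.13 in TRAP, and that of Timp1 2.71 in input, against 2.46 in TRAP.

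Some genes had larger values in input. Spp1 had a log2 change of 2.83 in input, against 1.32 in TRAP, Lgals3 2.00 in input, against 0.96 in TRAP, and Ptx3 1.57 in input, against 0.54 in TRAP. The difference between the fractions itself was tested as an interaction, and 0 of 10740 genes (0%) were called by limma, with a smallest adjusted p of 0.140, held by Spp1 among others. At an unadjusted p under 0.05 there were 516, and voom on the recovered reads also called 0. Counts of interaction calls in other settings were between 0 and 208, the largest without band TRAP library 1 and the next, 100, without band TRAP library 2. The band TRAP libraries differed from each other more than those of any other group, with a median absolute log2 difference of 0.207. A larger change in input than in TRAP is therefore given here as values only.

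**Figure D5:**
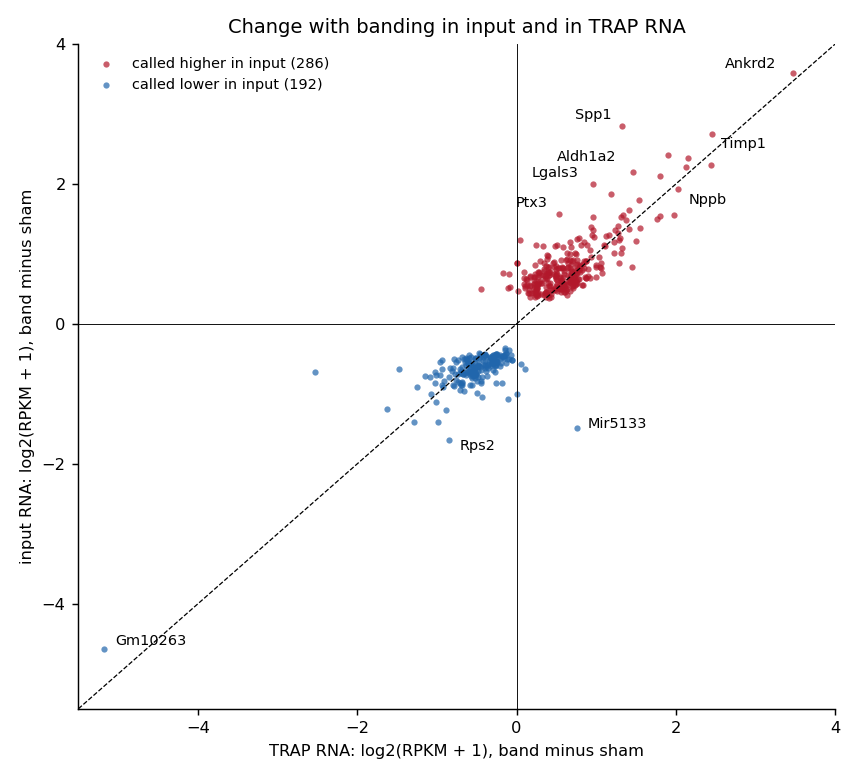
Difference in log2(RPKM + 1), band minus sham, in input RNA against the same difference in TRAP RNA for the 286 genes called higher (red) and 192 called lower (blue) in input, with the dashed line marking equal change. Most points lie in the quadrants of equal sign, and Spp1, Lgals3 and Ptx3 lie above the line.

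Set beside the hearts without surgery, 224 of the 286 genes that rose had both unoperated inputs below both band libraries, against 22.8% of all genes, but these genes were chosen for high band values and nothing is read from that count. For 63 of the 286 both unoperated inputs were below both sham libraries, a share near the 23.3% of all genes, so nothing is read from this count either. Of the 192 that fell, chosen for low band values, 140 had both unoperated inputs above both band libraries, against 28.5% of all genes. Serpina3n, Saa3, Mt2 and Spp1 were among the 63 genes that rose and stood lowest without surgery, and they are given as examples only. The libraries without surgery are single, come from different lines and held more atrial tissue, and their values were not tested.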

How the data were processed

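Input and TRAP RNA of operated CAG hearts was sequenced in 2 libraries each after banding and after sham surgery. RPKM values were deposited by the authors for 34306 genes with 1 transcript length each. The submitters' processing notes name CASAVA 1.8.2, TopHat 1.4, HTSeq 0.5.3 and the build NCBIM37, without settings. Per the labels' protocols, RNA was poly(A) selected, primed with random hexamers and made into libraries that do not mark strand, so reads of antisense or overlapping genes cannot be separated. The table held 12 libraries and 0 columns of other samples. Column names carry conditions and numbers only, and they were taken as libraries of the series' later deposit, whose titles end in l1 or l2 with no meaning given.

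The test was limma 3.58.1 (R 4.3.3) on log2(RPKM + 1), two-sided and with a variance trend, in 1 fit of 12 libraries with a mean per group. Genes entered it if 2 or more of the 4 input libraries of operated hearts reached 1 RPKM. The fit had 4 residual degrees of freedom and a prior of 3.00. Benjamini-Hochberg adjustment ran over 10740 genes. Ratios are of mean RPKM, and log2 changes understate those of genes near 1 RPKM. RPKM times length fell on whole reads for 233410 of 233410 positive values, within 0.02 reads, which gave the depths and allowed voom on recovered reads. The band input pair and the sham input pair each differed by more than counting noise.

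Genes were named by a rule. It took the 15 largest called changes in each direction, among genes whose band libraries lay both above or both below the sham libraries. From each of 52 gene lists it took up to 4 called members or its most abundant members. Classical overload genes, the 10 most abundant genes and genes above 1 RPKM in 1 group only were named too. Other list members that were called are named as such, and Il6, Il11, Uck2, Fam46b, Plau, Mmp3 and others outside the rule were chosen after their values were seen. Some genes that the rule or the lists hold are not reported here. The genes compared and the lists were chosen with earlier results of these data known. Alternatives changed the pseudocount (0.1 or 0.5), filter, normalization, samples in the fit, variance trend, test, replicate block and the libraries included. The script was tested on simulated data. Promoters come from RefSeq, GRCm38.p6. No promoter was found in that table for Ctgf, Ccl2 and Ccl7.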

Additional observations from a re-analysis of the deposited data

How the results depend on the processing

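Under 11 settings that changed the pseudocount, filter, scaling, trend or test, or kept the 4 input libraries alone, 274 to 382 genes were called higher except with pseudocount 0.1 (237), a filter of 5 RPKM (232) and the 4 input libraries alone (794). Calls lower were 144 to 212 except with quantile normalization (309) and the 4 input libraries alone (697). The replicate block gave 196 higher and 91 lower. The labels do not tell whether replicate numbers pair the samples. Deviations from the group mean correlated at −0.04 between band and sham input and at −0.45 between band and sham TRAP. Between input and TRAP they correlated at 0.03 in band and −0.19 in sham, and these values cannot settle the pairing. With the sham TRAP numbers crossed, a fit chosen after seeing the data, the counts were 264 and 158. Leaving out 1 library gave 24 to 796 higher and 5 to 759 lower, and 0 to 197 and 0 to 24 interaction calls. Interaction calls were otherwise 0, except 1 higher and 1 lower with pseudocount 0.1, 1 lower with no filter and 1 higher with quantile normalization. Fits without a TRAP library were added after seeing the data.

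No called gene changed sign. Sign changes were confined to 9 named genes that were not called. With quantile normalization mt-Co1 stood at 0.172, Mb at −0.0280 and mt-Nd1 at −0.149 (log2, band minus sham). Without 1 input library at a time, mt-Co2 ranged over −0.0886 to 0.129, Des −0.170 to 0.0050, Psmc3 −0.0760 to 0.0218, Ubb −0.0053 to 0.190, H19 −0.0184 to 0.187, mt-Cytb −0.140 to 0.107, Mb −0.0021 to 0.0144 and mt-Nd1 −0.0735 to 0.0765. Over all alternatives, the results of named genes kept direction and side of the threshold 2929 times, lost a call 581 times and gained one 51 times, and the causes were not tested.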

Other observations

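Genes of protein making and redox defence gave scattered calls. Of 41 genes of the unfolded protein response and endoplasmic reticulum, 5 rose and 1 fell, against 2.66% and 1.79% over all genes. Their median log2 change was 0.23. Sec61b, of the channel that takes proteins into the reticulum, had 52.0 and 52.9 RPKM in band, against 26.4 and 33.2 RPKM in sham (1.76-fold, adjusted p = 0.0147), while Herpud1, which serves protein degradation at the reticulum, fell, with 50.3 and 44.7 RPKM in band, against 68.0 and 69.7 RPKM in sham (adjusted p = 0.0308). In the oxidative stress list 4 of 37 rose, among them Hmox1, haem oxygenase 1, with 11.9 and 10.5 RPKM in band, against 5.85 and 5.75 RPKM in sham (1.93-fold, adjusted p = 0.0157). Of 18 DNA replication genes, Mcm5 and Mcm3, subunits of the replicative helicase, rose, with Mcm5 at 1.91 and 2.12 RPKM in band, against 0.963 and 0.805 RPKM in sham (2.28-fold, adjusted p = 0.0190). Of 35 proteasome genes, 25 had both band libraries above both sham libraries, against 29.3% of all genes, and 0 were called by limma or by voom, with 4 at an unadjusted p under 0.05, against 19.9% of all genes.

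Outside the lists, Uck2, which salvages uridine and cytidine, had 43.3 and 45.9 RPKM in band, against 14.1 and 14.98 RPKM in sham (3.07-fold, adjusted p = 0.00123), and Ctps, which makes CTP, had 18.4 and 16.0 RPKM in band, against 10.4 and 9.73 RPKM in sham (1.71-fold, adjusted p = 0.0405). Srm, spermidine synthase, and Odc1, ornithine decarboxylase, rose by 1.85-fold and 1.45-fold (adjusted p = 0.0337 and 0.0383). These 4 genes were chosen after their values were seen.

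The largest differences that were not called lay in mitochondrial transfer RNA genes, in which the band libraries differed most from each other. The gene mt-Tl2 had 9.84 and 104 RPKM in band, against 1.73 and 0.426 RPKM in sham (adjusted p = 0.0610), and 250.2 and 0.560 RPKM in the hearts without surgery. The gene mt-Te had 2589 and 12247 RPKM in band, against 1559 and 1159 RPKM in sham (adjusted p = 0.392), and 17679 and 147 RPKM in the hearts without surgery. Of messenger RNA, Hp, haptoglobin, had 11.1 and 5.48 RPKM in band, against 2.53 and 2.21 RPKM in sham (adjusted p = 0.153).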
